A study of Mus musculus with 30 samples.

Results

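The genes described here are 31 genes of the unfolded protein response of the endoplasmic reticulum (ER), the programme by which a cell matches its protein folding capacity to the load of secretory protein. They were taken as a list of symbols, chosen with earlier results of these data known. Each of the 31 had 1 Ensembl ID among the 54232 listed in every library. They fall into 11 chaperones and glycoprotein folding factors, 5 disulfide isomerases and small secreted or ER-resident stress proteins, 9 factors of ER-associated degradation, 4 sensors and transcription factors, and 2 genes of protein transport into and out of the ER.

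The 30 libraries were made from RNA of pancreatic islets, all from male wild-type C57BL/6N mice, to follow the islet transcriptome under cadmium. Mice received vehicle (5 libraries) or 1 mM cadmium chloride (4 libraries) for 6 weeks, or vehicle (6) or 1 mM cadmium chloride (5) for 18 weeks. In a separate arm, isolated islets were kept in culture for 96 hours, 5 libraries with vehicle and 5 with cadmium chloride at 0.5 uM. No group carried another allele or agent in the labels, and the sources used here give neither the age of the mice nor the route of dosing nor any pooling of islets. Nothing says that the libraries of a group came from separate animals or cultures, so the p-values speak of library-to-library spread alone, and that spread may be technical.

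Secretory proteins enter the ER through the Sec61 channel, fold with the help of lectins, Hsp70-type chaperones and disulfide isomerases, and leave in COPII vesicles. Proteins that fail to fold are drawn back to the cytosol and degraded. When unfolded protein builds up, the sensors IRE1 (Ern1), PERK (Eif2ak3) and ATF6 (Atf6) are released from the chaperone BiP (Hspa5), and XBP1 and ATF6 then raise transcription of chaperone and degradation genes while PERK slows translation. Beta cells make insulin in large amounts and depend on this response.

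Islet markers fitted the label: the beta cell list held 12.6 to 24.6% of the counts of a library, and Ins1 and Ins2 were counted in all 30. Total counts were 49564350 to 58366797 per library at 6 weeks, 9092759 to 51852364 at 18 weeks, where vehicle 4, vehicle 6 and cadmium 5 were lowest, and 24197072 to 26549350 in culture. The lowest count of any member in any library was 57, for Derl3. Markers of acinar cells, the enzyme-secreting cells that surround islets and are rich in ER, differed between the groups. They made up 2.72 to 5.003% of counts in vehicle and 3.70 to 8.18% in cadmium libraries at 6 weeks, 0.261 to 1.80% and 1.60 to 19.3% at 18 weeks, and at most 0.0153% in culture, where Ptf1a, a defining acinar factor, was at 0 in all 10 libraries. In bulk samples, a smaller share of a cell type and less RNA per cell cannot be told apart.

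Promoter elements found in these genes are shown here because members that carry them are compared further on. The ER stress element ERSE, CCAAT and CCACG with 9 bases of any kind between them, and its variant ERSE-II, ATTGG and CCACG with 1 base between them, are bound by the factor NF-Y together with ATF6 or XBP1. Promoter windows of 300 bases, 250 before and 50 after the start site, were taken from RefSeq (GRCm38.p6) and were present for 27 of the 31 members. Atf6, Derl1, Manf and Hyou1 had no entry. On either strand, exact ERSE letters were found in 9 of the 27 members (33.3%) and in 39 of all 32851 windows (0.119%). ERSE-II letters were found in 2 of 27 members and in 12 of all windows (0.0365%). Only exact matches were counted, and a match is a string of letters, not a measured site of binding. The sequences below are read in the direction of the gene, with the fixed letters in capitals. Where the element lies on the opposite strand it appears as CGTGG and ATTGG.
Hspa5: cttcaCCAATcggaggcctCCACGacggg
Hsp90b1 (upstream copy): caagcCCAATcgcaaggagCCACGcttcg
Hsp90b1 (downstream copy): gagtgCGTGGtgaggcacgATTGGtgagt
Calr: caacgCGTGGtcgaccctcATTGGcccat
Canx: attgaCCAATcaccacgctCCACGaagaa
Dnajc3: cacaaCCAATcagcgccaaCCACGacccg
Pdia6: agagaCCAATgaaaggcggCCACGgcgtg
Creld2: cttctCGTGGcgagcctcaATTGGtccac
Syvn1: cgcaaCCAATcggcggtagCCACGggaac
Derl3: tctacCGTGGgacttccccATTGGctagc
Herpud1 (ERSE-II): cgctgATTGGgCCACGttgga
Dnajb11 (ERSE-II): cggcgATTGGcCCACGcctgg
The Hspa5 element occupied bases -65 to -47 from the RefSeq start (window shown: chr2:34772020-34772048, plus strand), and the Syvn1 element bases -44 to -26 (chr19:6046527-6046555, plus strand). The Derl3 element lay at -156 to -138 (chr10:75893237-75893265, plus strand) and the Creld2 element at -126 to -108 (chr15:88819515-88819543, plus strand). Hsp90b1 held 2 copies, at -212 to -194 and -107 to -89 (chr10:86705633-86705661 and chr10:86705528-86705556, minus strand). The Herpud1 element lay at -52 to -42 (chr8:94386372-94386392, plus strand). The Dnajb11 element was the one element found after the start, at bases 7 to 17 counted from 0 at the start (chr16:22857847-22857867, plus strand).

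**Figure D1:**
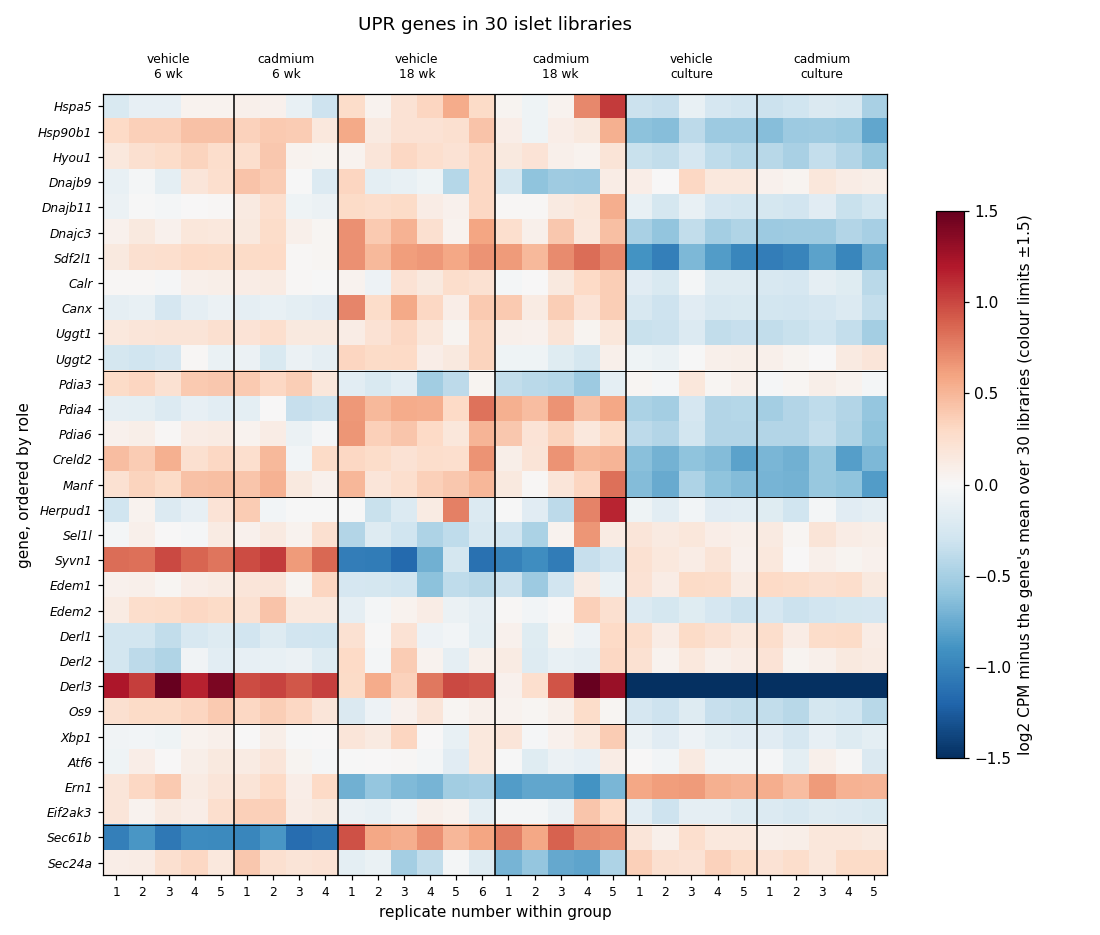
Log2 CPM of the 31 genes (rows, ordered by role) in the 30 libraries (columns, replicate numbers within group), each gene centred on its own mean over the 30 libraries and coloured between -1.5 and 1.5. The culture columns are low for Sdf2l1, Creld2, Manf, Hsp90b1 and Derl3, Sec61b is low at 6 weeks, Syvn1 and Ern1 are low at 18 weeks, and cadmium libraries 4 and 5 of the 18-week group are high for Hspa5 and Herpud1.

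Levels are given as CPM, the count of a gene divided by the TMM-scaled library total and expressed per 1e6, and per kilobase of exon where genes are compared with each other. Per kilobase, the ER lumen chaperones led. In vehicle libraries at 6 weeks Hspa5, encoding BiP, stood at 378 ± 31.4 CPM per kb (SD, n = 5), Pdia3, an isomerase that works with the lectins, at 355 ± 18.3, Hsp90b1, encoding GRP94, at 326 ± 14.1 and the lectin Calr at 317 ± 10.3. The ranges of these neighbours overlapped each other, and all 4 lay above the membrane lectin Canx at 186 ± 7.65. At the other end were Uggt2, a glucosyltransferase related to the folding sensor UGGT1, at 3.13 ± 0.30 and the COPII coat gene Sec24a at 6.65 ± 0.42. The mean of the highest gene was 121 times that of the lowest. Hspa5 was the highest gene by mean in all 6 groups. The spread between libraries was widest at 18 weeks: the median coefficient of variation over the 31 genes was 11.2% in vehicle and 12.1% in cadmium libraries there, and 4.81 to 7.22% in the other 4 groups. Herpud1 varied most at 18 weeks, by 31.4% in vehicle and 47.0% in cadmium libraries. In vehicle culture Derl3, a derlin of the degradation channel, was lowest, at 1.48 ± 0.17 CPM per kb.

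The first comparison asked what 6 weeks of cadmium did to these genes in vivo. None of the 31 members passed an adjusted p of 0.05 (edgeR quasi-likelihood test, Benjamini-Hochberg over 18080 genes, of which 0% were called), and DESeq2 called none of them either. The log2 fold changes, cadmium over vehicle, had a median of -0.0013 against -0.0019 for all genes tested, with 15 members higher and 16 lower (50.7% of all genes were lower). At an unadjusted p under 0.05 there was 1 member, against 5.11% of all genes. The 95% intervals of all 31 members lay within a 1.5-fold change in either direction, the outermost bounds being -0.48 for Derl3 and 0.42 for Dnajb9.

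Derl3 was the member of smallest p at 6 weeks. Its vehicle libraries stood at 22.6, 19.96, 27.3, 21.7 and 25.8 CPM and its cadmium libraries at 19.1, 19.6, 18.5 and 19.8. Every cadmium library was below every vehicle library, an order without overlap, and lower, that 0.603% of all genes tested also showed. The log2 fold change was -0.29 ± 0.08 (SE; unadjusted p = 0.00579 and adjusted p = 0.919, edgeR). The acinar share, given above, was not lower in these cadmium libraries, while markers of plasma cells held 0.0116 to 0.0448% of vehicle and 0.00187 to 0.0378% of cadmium counts. The part of either cell type in the value was not tested. The next members by p were Edem1 (0.10 ± 0.05, a mannosidase-like factor that marks glycoproteins for degradation), Sel1l (0.09 ± 0.05, the scaffold of the HRD1 ligase) and Derl2 (0.12 ± 0.08), each with an adjusted p of 0.919.

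**Figure D2:**
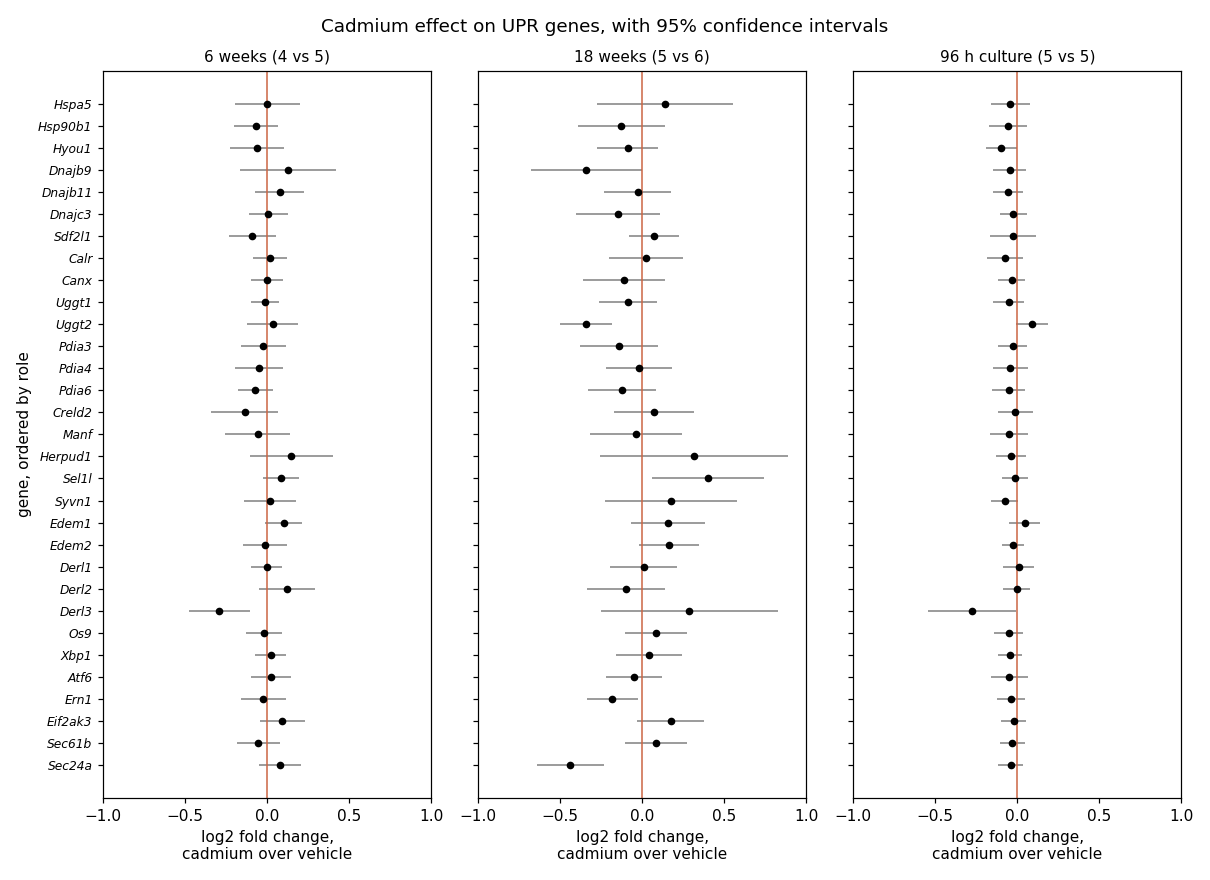
Log2 fold change of cadmium over vehicle (points) with 95% confidence intervals (bars) for the 31 genes in the 3 settings, n given as cadmium against vehicle libraries. Intervals are widest at 18 weeks, where Sec24a, Uggt2 and Dnajb9 have the lowest points, and in culture 28 of 31 points lie below 0.

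After 18 weeks of cadmium, 2 genes were lowest relative to vehicle: Uggt2, and Sec24a, which selects cargo for COPII vesicles. Dnajb9 lay close to Uggt2, with a log2 fold change of -0.3405 against -0.3431, and is described further on. Uggt2 lies on chromosome 14, from 118985039 to 119099430 on the minus strand, and Sec24a on chromosome 11, from 51692264 to 51763634 on the minus strand (GRCm38, GENCODE M21). Neither passed the adjusted threshold, and again none of the 31 members did, against 0.359% of the 20911 genes tested. At an unadjusted p under 0.05 there were 5 members, against 18.2% of all genes, a share close to the background. Fold changes were split, 15 higher and 16 lower (50% of all genes were lower), with a median of -0.019 against 0.0003 for all genes. Of the 9 degradation genes 8 were above 0 (median 0.16), and of the 11 chaperones 8 were below 0 (median -0.09). Without vehicle 4, vehicle 5, cadmium 4 and cadmium 5, which are described further on, 5 of the 9 degradation genes were above 0 (median 0.01) and 10 of the 11 chaperones below 0 (median -0.19). Those libraries were picked after the values were seen, so the counts without them are no test. The difference between roles was not tested. The 95% intervals of 26 of the 31 members lay within 1.5-fold, and the exceptions were Dnajb9, Herpud1, Sel1l, Derl3 and Sec24a.

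Uggt2 in vehicle libraries at 18 weeks ranged from 48.5 through a median of 55.3 to 56.8 CPM, and its cadmium libraries stood at 43.3, 43.2, 39.7, 37.7 and 47.6. It was the single member whose groups did not overlap, an order in the lower direction that 0.588% of all genes showed. The log2 fold change was -0.34 ± 0.07 (edgeR, adjusted p = 0.0701). Sec24a ranged from 43.8 through 55.5 to 61.1 CPM in vehicle libraries and stood at 38.5, 41.7, 36.5, 36.0 and 45.2 in cadmium libraries. Cadmium 5 lay above the lowest vehicle library, so the groups overlapped. The log2 fold change was -0.44 ± 0.09 (edgeR, adjusted p = 0.0718).

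Both genes lay just outside the threshold and their calls moved with the settings. DESeq2 called both lower (adjusted p = 0.00245 for Uggt2 and 0.00313 for Sec24a), as did the fit of all 6 groups together (0.000934 and 0.000212) and the fit without cadmium 5. These fits also called more genes over the whole set. DESeq2 called 751 and the fit without cadmium 5 called 318 of 21280, against 75 of 20911 in the main fit. With the acinar share as a covariate the estimates for Uggt2 and Sec24a were -0.31 ± 0.14 and -0.41 ± 0.17, both with an adjusted p of 0.99. That share nearly separated the treatments at 18 weeks, at 0.261 to 1.80% in vehicle and 1.60 to 19.3% in cadmium libraries. The covariate fit could therefore hardly tell it from cadmium.

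**Figure D3:**
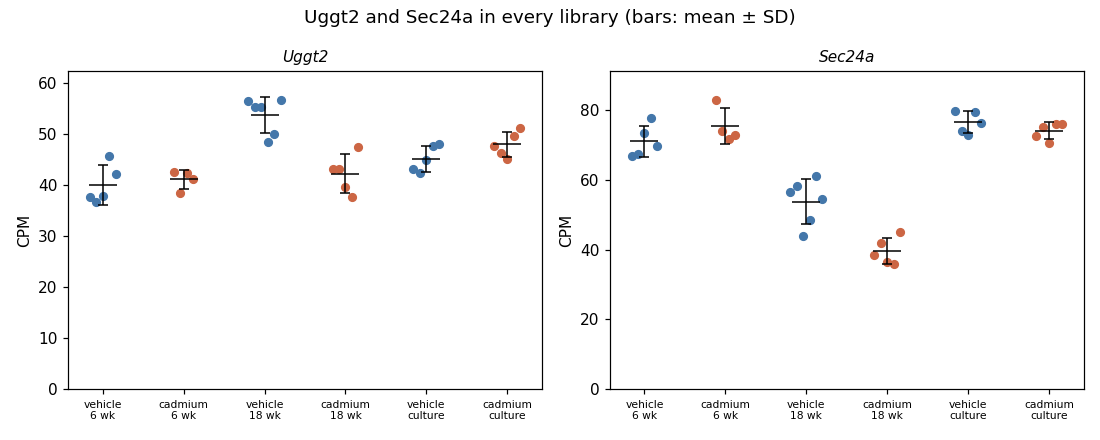
CPM of Uggt2 and Sec24a in each library (points; vehicle blue, cadmium orange) with the mean and SD of each group, on linear axes from 0. At 18 weeks the cadmium libraries sit below the vehicle libraries for Uggt2 without overlap and for Sec24a with 1 crossing, while at 6 weeks and in culture the groups overlap.

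The members Sel1l, Ern1 and Dnajb9 were also under an unadjusted p of 0.05 at 18 weeks. Sel1l ranged from 212 through a median of 231 to 255 CPM in vehicle libraries and stood at 239, 210.01, 303, 461 and 316 in cadmium libraries, so that 3 cadmium libraries lay above every vehicle library, 1 among them and 1 just below the lowest. Its log2 fold change of 0.40 ± 0.16 (edgeR, adjusted p = 0.217) became -0.35 ± 0.18 with the acinar share as a covariate. That fit, as said above, could hardly tell the share from cadmium. Cadmium 4, the library of highest Sel1l, also had the highest acinar share, 19.3%. Ern1, the IRE1 sensor, ranged from 172 through 183 to 201 CPM in vehicle libraries and stood at 158, 164, 165, 151 and 175 in cadmium libraries. Cadmium 5 lay above 2 of the vehicle libraries, so the groups overlapped, and the log2 fold change was -0.18 ± 0.07 (edgeR, adjusted p = 0.218). Dnajb9, a BiP co-chaperone and target of XBP1, overlapped widely, with a log2 fold change of -0.34 ± 0.16 (adjusted p = 0.269).

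At 18 weeks, 3 libraries, from both treatments, stood apart in some of the members. In the order of their numbers, the vehicle libraries held Hspa5 at 2026, 1739.6, 1955, 2102, 2458 and 2053 CPM. The cadmium libraries held it at 1730, 1600.06, 1739, 2751 and 3461 CPM. Herpud1, an ER membrane protein that recruits the degradation machinery, stood at 234, 188, 205, 256, 398 and 204 in vehicle and at 234, 209, 180, 396 and 518 in cadmium libraries. Syvn1, the HRD1 ubiquitin ligase, stood at 31.5, 31.1, 28.7, 39.0, 53.6 and 29.7 in vehicle and at 32.0, 33.8, 31.3, 51.0 and 53.1 in cadmium libraries. Vehicle 5, cadmium 4 and cadmium 5 held the 3 highest values of each of these genes, and also those of Calr and Derl3. That order was seen for 5 of 31 members and for 3.92% of the 20911 genes tested. For the other 26 members the 3 libraries overlapped the rest. The 3 libraries were picked after such values were seen, so this count is no test.

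The same 3 libraries were high for genes of acute stress outside the list. Atf3, a stress-induced transcription factor, stood at 97.0 CPM in vehicle 5, at 185 and 173 in cadmium 4 and 5, at 27.8 in vehicle 4, and at 1.06 to 4.37 in the other 7. Ppp1r15a, encoding the phosphatase subunit GADD34, stood at 137, 146 and 142 CPM in the same 3 libraries, at 84.5 in vehicle 4 and at 19.6 to 33.2 elsewhere. A set of 12 immediate early genes, chosen after the values were seen, summed to 3836, 4059.8 and 4227 CPM there, to 1888 in vehicle 4 and to 259.8 to 634 in the other 7. At 6 weeks the same set summed to 1471 to 2737 CPM in vehicle and 1649 to 2576 in cadmium libraries. The value of vehicle 4 lay within both ranges. Atf3 was at 2.26 to 9.93 CPM in the 6-week libraries. The acinar share was 0.656% in vehicle 5, 19.3% in cadmium 4 and 6.41% in cadmium 5. The cadmium comparison was repeated without vehicle 4, vehicle 5, cadmium 4 and cadmium 5, an alternative chosen after seeing the data. It called 0 of 31 members, against 0.375% of 21353 genes. The median of the members was -0.11, against 0.0023 for all genes, and 23 of 31 were below 0, as were 49.6% of all genes. Herpud1 moved from 0.32 ± 0.27 to 0.01 ± 0.11, Hspa5 from 0.14 ± 0.19 to -0.19 ± 0.13 and Sel1l from 0.40 ± 0.16 to 0.08 ± 0.13. Cadmium 4 and cadmium 5, left out here, had the highest mean levels of the 31 genes among the cadmium libraries. These were 0.0609 and 0.2098 on the log2 scale relative to the vehicle mean, against -0.1977 to -0.0681 in the others. Both libraries were also among the highest for Herpud1, Hspa5 and Sel1l. The shifts of the median, of the count below 0 and of these 3 genes follow from that choice and are no test. Uggt2 was -0.40 ± 0.08 and Sec24a -0.44 ± 0.11 in that fit (edgeR, adjusted p = 0.0558 and 0.0808). The lowest member there was Dnajb9, at -0.56 ± 0.14 (edgeR, adjusted p = 0.0856).

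**Figure D4:**
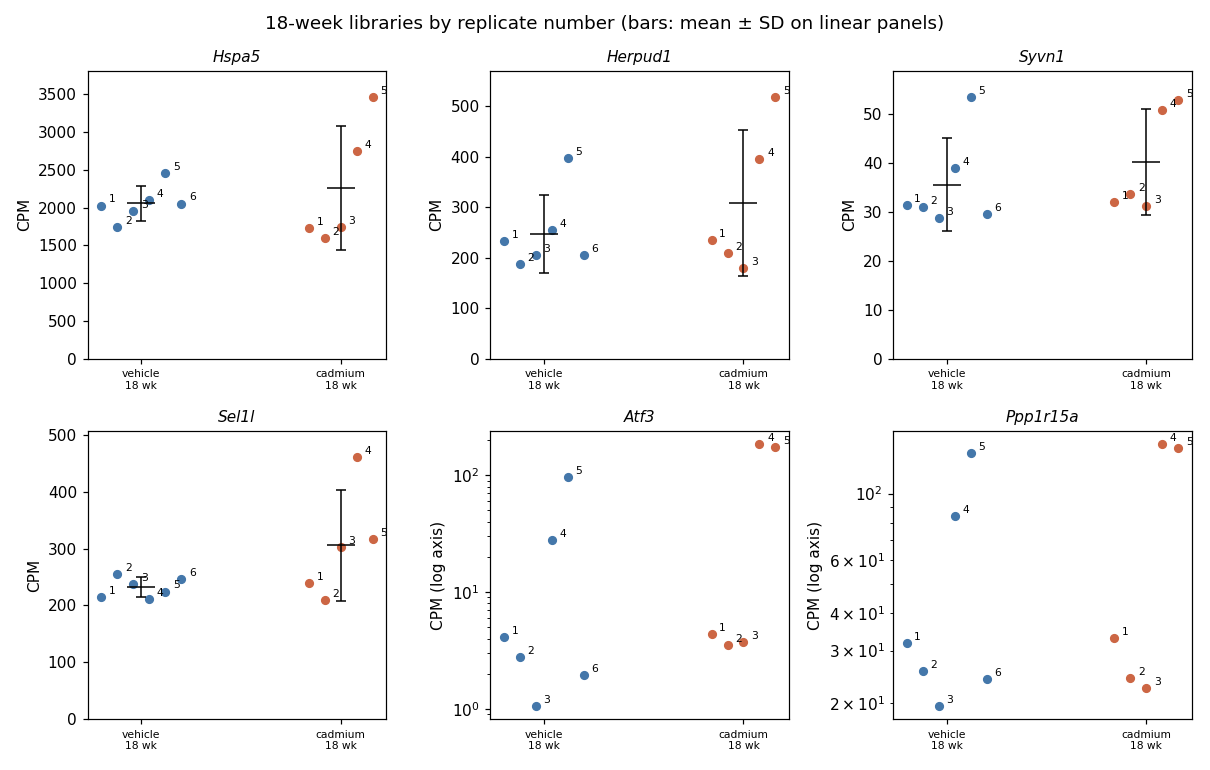
CPM in the 11 libraries of 18 weeks, numbered by replicate, for Hspa5, Herpud1, Syvn1 and Sel1l (linear axes from 0, with mean and SD) and for Atf3 and Ppp1r15a (log axes). Vehicle 5, cadmium 4 and cadmium 5 are the 3 highest libraries for Hspa5, Herpud1, Syvn1, Atf3 and Ppp1r15a, and vehicle 4 is the fourth for Atf3 and Ppp1r15a.

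In culture, 96 hours of cadmium left the members close to vehicle. None of the 31 was called, against 0.00597% of 16743 genes. Of the 31, 28 had a log2 fold change below 0, as did 51.2% of all genes, and their median was -0.04 against -0.0021. The members share their libraries and are not independent, so this count is no test. The median came to -0.01 without vehicle 3 and to -0.02 without cadmium 5. Markers of other cells moved alongside. Of 8 stellate cell markers, all detected in every library, 7 were higher with cadmium (5 at an unadjusted p under 0.05, none called), and the list held 0.0339 to 0.0815% of vehicle and 0.0495 to 0.126% of cadmium counts. All 10 beta cell markers were lower (none at that p), with shares of 15.66 to 16.4% and 12.9 to 16.2%. Cadmium 2 and cadmium 5 had the lowest mean levels of the 31 genes among the 10 libraries, the highest stellate shares and the lowest beta shares, and the part of these cells in the result was not tested. At an unadjusted p under 0.05 there were 2 members, against 5.49% of all genes, and DESeq2 called none. No member had groups that did not overlap, against 0.83% of all genes. The 95% intervals of all 31 members lay within 1.5-fold, with outermost bounds of -0.54, for Derl3, and 0.19, for Uggt2.

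The 2 members under that p were Hyou1, an Hsp70-type chaperone that exchanges nucleotide on BiP, and Derl3. Hyou1 stood at 681, 666, 719, 659 and 635 CPM in vehicle and at 643, 609, 667, 633 and 579 in cadmium libraries, which overlap. Its log2 fold change was -0.10 ± 0.04 (edgeR, unadjusted p = 0.0448 and adjusted p = 0.888). Derl3 stood at 3.34, 2.61, 3.27, 2.72 and 2.84 CPM in vehicle and at 2.60, 2.23, 2.85, 2.02 and 2.49 in cadmium libraries, also overlapping, with a log2 fold change of -0.27 ± 0.13 (adjusted p = 0.888). Syvn1 followed with -0.08 ± 0.04 and Uggt2, in the direction opposite to that at 18 weeks, with 0.09 ± 0.05, both with an adjusted p of 0.888. Hspa5, the usual readout of ER stress, differed by -0.04 ± 0.06, with an interval from -0.16 to 0.08.

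Whether the cadmium effect itself differed between settings was tested as contrasts in 1 fit of all 6 groups (22721 genes). Each setting enters 2 of the 3 contrasts. Between 18 and 6 weeks, 2 of 31 members differed, both lower at 18 weeks, against 1.68% of all genes called and 0.783% called lower. They were Sec24a (difference of log2 fold changes -0.53 ± 0.10, edgeR adjusted p = 0.0305) and Uggt2 (-0.39 ± 0.09, adjusted p = 0.0350). At 6 weeks Sec24a had stood at 66.9, 67.5, 73.6, 77.7 and 69.7 CPM in vehicle and at 83.0, 74.1, 71.7 and 72.8 in cadmium libraries. Uggt2 had stood at 37.6, 36.7, 37.8, 45.8 and 42.3 in vehicle and at 42.6, 38.5, 42.3 and 41.2 in cadmium libraries. Both genes thus overlapped between treatments at 6 weeks, and for Uggt2 the vehicle libraries of 18 weeks were all above those of 6 weeks.

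Both calls were kept under the other scaling, without a filter and with the replicate block. DESeq2 kept them too, with 1369 genes called in all against 382 by edgeR. The calls moved with single libraries. Of the 20 fits that left out 1 library, those without vehicle 1, 2 or 3 or cadmium 1 or 3 of the 6-week groups, or without vehicle 6, cadmium 3 or cadmium 4 of the 18-week groups, called no member. Those without cadmium 4 of 6 weeks or vehicle 1 of 18 weeks kept Sec24a alone, and that without cadmium 5 of 18 weeks added Dnajb9. Without the 4 libraries of high Atf3 calls rose over all genes, to 11.2% of 22870 and 5.19% lower, and 6 members were called lower: Sec24a, Uggt2, Dnajb9 (-0.69 ± 0.18, adjusted p = 0.0126), Dnajb11 (-0.30 ± 0.09, adjusted p = 0.0277), Dnajc3 (-0.31 ± 0.09, adjusted p = 0.0315) and Derl2 (-0.36 ± 0.11, adjusted p = 0.0343). Dnajb11 and Dnajc3 encode J-domain co-chaperones of BiP. The libraries left out were picked by a stress gene after the values were seen, so the added calls are no independent test.

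Between culture and 6 weeks no member differed (0% of genes called by edgeR, no member by DESeq2, and 0 members at an unadjusted p under 0.05 against 3.34% of all genes), and the 4 of smallest p were Dnajb11, Sec24a, Eif2ak3 and Derl2, with differences from -0.12 to -0.14. Between culture and 18 weeks no member was called by edgeR (0.0176% of genes), with 4 members at an unadjusted p under 0.05 against 13.2% of all genes. Uggt2 (0.44 ± 0.09, adjusted p = 0.0857) and Sec24a (0.40 ± 0.10, adjusted p = 0.149) were the members of smallest p, followed by Sel1l (-0.42 ± 0.16) and Edem2 (-0.19 ± 0.09). DESeq2 called Uggt2 and Sec24a (adjusted p = 0.00242 and 0.029), and it also called more genes over the whole set than edgeR did.

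The largest differences in these genes lay between the 3 settings, within vehicle libraries. In a fit of the 3 vehicle groups (20735 genes), 21 of 31 members differed between 18 and 6 weeks, 11 higher and 10 lower, where 73.8% of all genes were called, 38.2% higher and 35.6% lower. Culture against 6 weeks called 22, of which 5 were higher and 17 lower, where 53.8% of all genes were called, 25.9% higher and 28% lower. Culture against 18 weeks called 27, of which 7 were higher and 20 lower, against 67.3% called, 31.3% higher and 36% lower. Groups that do not overlap in CPM were common in these contrasts, at 52.3%, 47.3% and 48.2% of all genes in the same order. Age or time on vehicle, culture, depth and sequencing run cannot be told apart in these contrasts, and each vehicle group enters 2 of them. The acinar share, at most 0.0153% in culture and at least 0.261% in the other vehicle libraries, moves with them, and its part was not tested.

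Among the 11 chaperones, 7 fell and Uggt2 rose in culture against 6 weeks, and 10 fell and none rose against 18 weeks. Hsp90b1 stood at 1244, 1294, 1294, 1373 and 1375 CPM at 6 weeks, between 1108 and 1498 with a median of 1188 at 18 weeks, and at 661, 651, 767, 689.9 and 694 in culture. It fell in both contrasts, with log2 differences of -0.92 ± 0.08 against 6 weeks (edgeR, adjusted p = 1.02e-08) and -0.85 ± 0.08 against 18 weeks (1.25e-08). Sdf2l1, a partner of BiP complexes, stood at 91.1, 97.4, 97.9, 101 and 100.5 CPM at 6 weeks, between 115 and 132 with a median of 128 at 18 weeks, and at 44.0, 40.3, 51.4, 45.8 and 41.6 in culture. The culture libraries of both genes lay below every other vehicle library. Sdf2l1 fell in both as well, with differences of -1.12 ± 0.06 and -1.49 ± 0.06 (adjusted p = 1.31e-11 and 3.36e-13). Hspa5 differed less, by -0.18 ± 0.09 against 6 weeks (adjusted p = 0.0788) and -0.55 ± 0.08 against 18 weeks (9.99e-06), and Dnajb9 passed neither test (0.12 ± 0.12 and 0.15 ± 0.11). Canx, which traps glycoproteins until folded, was highest at 18 weeks, 0.55 ± 0.08 above 6 weeks (5.27e-06) and with a difference of -0.64 ± 0.08 from there to culture (1.13e-06). Dnajc3, a BiP co-chaperone that also inhibits PERK, followed the same order, 0.30 ± 0.09 above 6 weeks (0.00373) and -0.90 ± 0.09 in culture against 18 weeks (3.56e-08). Hyou1 and Uggt1, the glucosyltransferase that returns unfolded glycoproteins to the lectins, did not pass the test between 18 and 6 weeks (-0.03 ± 0.06 and 0.01 ± 0.06) and fell in culture against 6 weeks, with differences of -0.60 ± 0.06 and -0.50 ± 0.06 (1.98e-07 and 1.22e-06). Calr fell less, by 0.19 ± 0.07 (0.0215).

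The 5 disulfide and small stress proteins were also low in culture. All 5 fell in culture against 6 weeks, and 4 of 5 against 18 weeks, Pdia3 having risen by 0.29 ± 0.08 there. Creld2, a secreted ER stress protein, stood at 86.7, 82.4, 91.5, 74.4 and 78.6 CPM at 6 weeks, between 73.4 and 101 with a median of 76.1 at 18 weeks, and at 41.0, 38.5, 41.6, 40.3 and 36.2 in culture. It fell, with differences of -1.06 ± 0.09 and -1.01 ± 0.08 (edgeR, adjusted p = 4.44e-09 and 4.22e-09). Manf, a neurotrophic factor retained in the ER, stood at 196, 210.2, 203, 227 and 228 CPM at 6 weeks, between 189 and 236 at 18 weeks, and at 106, 99.2, 121, 109.8 and 106 in culture, and fell, with differences of -0.96 ± 0.07 and -0.98 ± 0.07 (1.45e-09 and 5.51e-10). Up to 8.9% of the exon bases of Manf and 10.3% of those of Hsp90b1 are shared with genes of the opposite strand, whose reads cannot be told apart where counting ignored strand. The isomerase Pdia6 fell too, with differences of -0.47 ± 0.07 and -0.80 ± 0.07 (2.27e-05 and 1.26e-08). Pdia4 was highest at 18 weeks, 0.72 ± 0.07 above 6 weeks, while Pdia3 was lowest there, by -0.55 ± 0.08.

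**Figure D5:**
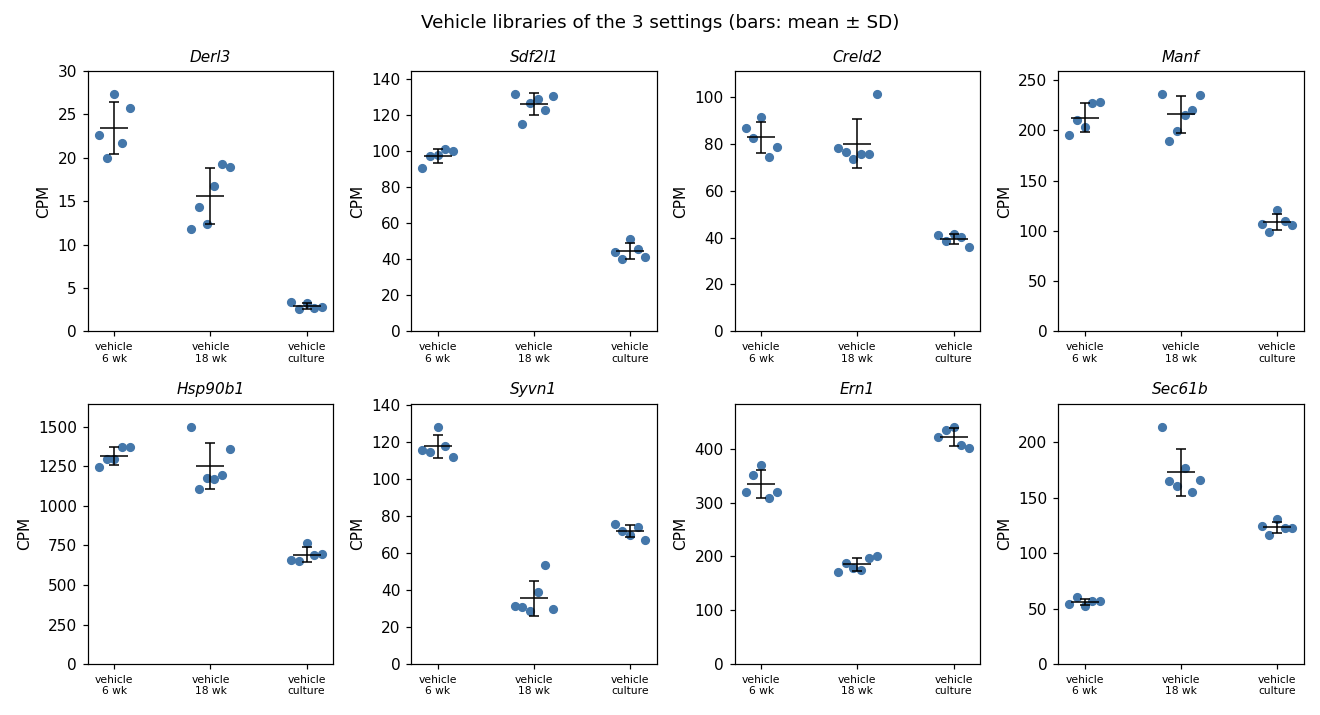
CPM of 8 genes in the vehicle libraries of 6 weeks (5), 18 weeks (6) and culture (5), with mean and SD, on linear axes from 0. Derl3, Sdf2l1, Creld2, Manf and Hsp90b1 are lowest in culture, Syvn1 and Ern1 are lowest at 18 weeks, and Sec61b is lowest at 6 weeks, in each case without overlap with the other groups.

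The degradation genes split. Derl3 had the largest change of the 31: its 6-week values of 19.96 to 27.3 CPM and its 18-week values of 11.8 to 19.3 CPM compared with 2.61 to 3.34 in culture. It fell, with differences of -2.98 ± 0.15 against 6 weeks and -2.37 ± 0.15 against 18 weeks (edgeR, adjusted p = 5.17e-12 and 1.41e-10), and was already lower at 18 than at 6 weeks, by -0.61 ± 0.13. Syvn1 stood at 116, 115, 128, 118 and 112 CPM at 6 weeks, between 28.7 and 53.6 with a median of 31.3 at 18 weeks, and at 75.5, 72.1, 69.8, 74.0 and 67.4 in culture. No values overlapped between the 3 groups, and the 18-week group was lowest, by -1.72 ± 0.13 against 6 weeks (5.06e-10). Its partner Sel1l, at 285 to 317, 212 to 255 and 306 to 331 CPM in the same order, was also lowest at 18 weeks, by -0.36 ± 0.06 (2.42e-05). Edem1 fell at 18 weeks, with a difference of -0.44 ± 0.06 (3.27e-06), and Edem2 and Os9, a lectin that hands glycoproteins to the ligase, fell in both contrasts of culture. Derl1 rose by 0.30 ± 0.06 at 18 weeks and 0.49 ± 0.06 in culture against 6 weeks, but 20% of its longest transcript is nearly identical to another gene, so its counts are uncertain. Derl2 rose by 0.37 ± 0.08 and 0.39 ± 0.08 against 6 weeks (0.000372 and 0.000561). Herpud1 passed none of the 3 tests.

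Of the sensors, Ern1 varied most. It stood at 319.5, 351, 370.1, 308 and 321 CPM at 6 weeks, between 172 and 201 with a median of 183 at 18 weeks, and at 423, 435, 440.1, 408 and 401 in culture. The 3 groups did not overlap, and culture was 0.34 ± 0.07 above 6 weeks and 1.19 ± 0.07 above 18 weeks (edgeR, adjusted p = 0.000394 and 2.35e-11). Eif2ak3, encoding PERK, fell by 0.33 ± 0.06 in culture against 6 weeks, although 8% of its exon bases are shared with a gene of the opposite strand. Atf6 passed none of the 3 tests, with log2 differences of -0.06 to 0.01, and Xbp1 passed that between culture and 18 weeks (-0.24 ± 0.06, adjusted p = 0.00179).

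Of the transport genes, Sec61b, the beta subunit of the Sec61 channel, stood at 53.8, 60.1, 52.4, 57.1 and 56.6 CPM at 6 weeks, between 155 and 213 with a median of 165 at 18 weeks, and at 124, 116, 131, 122 and 122 in culture. The groups did not overlap, and it rose by 1.62 ± 0.07 at 18 weeks and 1.14 ± 0.07 in culture against 6 weeks (edgeR, adjusted p = 2.43e-13 and 9.11e-11). Of its longest transcript, 22.8% is nearly identical to 3 other genes. Among the 3 genes of smallest p in each of the other pathway lists, those with at least 20% in copies differed widely between 18 and 6 weeks, from 4.81 ± 0.12 for Sec61g (22.6% in copies) through 2.22 ± 0.07 for Vcp (73%), 2.12 ± 0.105 for Srp54a (80.9%), 1.33 ± 0.10 for Srp9 (21.1%), 1.17 ± 0.08 for Eif2s1 (27.9%) and 0.49 ± 0.05 for Ppib (36.9%) to -0.40 ± 0.06 for Erp29 (43.4%). Copies were searched for on both strands, so bases shared with an overlapping gene of the opposite strand can count as copies. Such bases made up 26.4% of the exon bases of Erp29, 25% of Ppib, 14.1% of Srp9 and 7.3% of Vcp. All the genes with copies from the other lists were picked by small p in this contrast, so that they differ says nothing about copies. Among genes picked likewise with 0% in copies, the widest differences were -2.91 ± 0.13 (Creb3l1), -1.77 ± 0.08 (Creb3l2) and -1.61 ± 0.09 (Atf5). How reads with more than 1 alignment were counted is not stated in the sources used here, so the Sec61b difference is uncertain. Sec24a was lowest at 18 weeks, by -0.40 ± 0.08 against 6 weeks.

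The other genes of the pathway were read from 6 lists. Under cadmium none of their 127 tested genes (126 in culture) was called by edgeR in any setting. DESeq2 called 3 of them, all at 18 weeks, where it called 751 of 20911 genes in all. Another list holds genes of the PERK branch and of the integrated stress response, and with them Eif2s1 and the kinase genes Eif2ak1, Eif2ak2 and Eif2ak4. Between vehicle groups, it had more genes higher than lower in culture. There 11 of 18 rose and 3 fell against 6 weeks, and 11 rose and 1 fell against 18 weeks. Of all genes, 25.9% were called higher and 28% lower against 6 weeks, and 31.3% and 36% against 18 weeks. Trib3, a pseudokinase induced by ATF4 and CHOP, stood at 5.06 to 13.0 CPM in the 6-week vehicle group, 2.99 to 6.73 in that of 18 weeks and 56.6 to 82.6 in that of culture, and rose by 3.10 ± 0.22 and 3.75 ± 0.22 (edgeR, adjusted p = 7.79e-10 and 5.4e-11). Sesn2 rose by 0.98 ± 0.08 and 1.93 ± 0.08. Of 25 other folding genes 4 rose and 12 fell against 6 weeks, with Fkbp11 down by 1.53 ± 0.09. Of 20 other degradation genes 4 rose and 9 fell, of 30 translocation genes 5 rose and 10 fell, of 16 COPII genes 1 rose and 7 fell, and of 18 regulators 1 rose and 9 fell. Against 18 weeks these counts differed: 4 folding genes rose and 5 fell, 11 degradation genes rose and 6 fell, 4 translocation genes rose and 18 fell, 7 COPII genes rose and 6 fell, and 10 regulators rose and 5 fell. Shares called in these lists were 50 to 65% against 6 weeks, near the 53.8% of all genes. Against 18 weeks they were 36% for folding genes and 73.3 to 85% for the others, beside 67.3% of all genes. The immediate early genes, at 1471 to 2737 CPM summed at 6 weeks, were at 187 to 303 in vehicle culture.

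The members with an exact ERSE in the promoter window were set beside the 18 whose window lacks it. Against 6 weeks, all 9 ERSE members had a lower level in culture, as 50.6% of all genes did, and 7 of them were called lower, with a median log2 difference of -0.60, while of the 18 others 8 were called lower and 4 higher, with a median of -0.08. Against 18 weeks 8 of the 9 were called lower and Syvn1 higher, with a median of -0.80, and of the 18 others 10 were lower and 5 higher, with a median of -0.19. Of all genes, 28% were called lower and 25.9% higher against 6 weeks, and 36% and 31.3% against 18 weeks. Of the 4 members without a promoter entry, 2 were called lower and 1 higher in each contrast, with medians of -0.32 and -0.28. The 2 members with ERSE-II differed from each other: Dnajb11 fell in culture, with differences of -0.18 ± 0.06 and -0.42 ± 0.06, and Herpud1 passed neither test. Under cadmium the median of the 9 was -0.0013 at 6 weeks, 0.02 at 18 weeks and -0.05 in culture, and none was called. These are descriptions of 9 genes, with no test of the difference between the sets.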

How the data were processed

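Total RNA of islets was sequenced in 30 libraries. Per the submitters' processing notes, the authors used cutadapt 1.13, STAR, HTSeq 0.6.1p1 and DESeq2 on mm10, and deposited raw counts per Ensembl gene. The sources used here state no annotation release, no strand setting and no rule for reads with several alignments. Of 54232 IDs, 54079 (99.72%) were matched to a symbol.

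Groups came from the sample titles. The members and lists were chosen with earlier results of these data known. Genes were filtered with filterByExpr (minimum count 10, minimum total 15), scaled by TMM and tested with edgeR 4.0.16 (quasi-likelihood, R 4.3.3, limma 3.58.1), with Benjamini-Hochberg adjustment over all genes tested and a threshold of 0.05. Each cadmium comparison used its own 2 groups, the vehicle contrasts the 3 vehicle groups, and the differences of cadmium effects all 6. SE is the absolute log2 fold change divided by the square root of F, and intervals are 95%. All 31 members passed the filter in every comparison. Levels per kilobase divide CPM by the union of exons (GENCODE M21, GRCm38). Full statistics are given for members called, or for the 4 of smallest p where fewer than 4 were called, and for at most 3 genes of each other list.

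Alternatives were median-of-ratios scaling, no filter, DESeq2 1.42.0, the replicate number as a block, all 6 groups in 1 fit, the acinar share as a covariate, acinar and Reg genes left out, and leaving out libraries. The labels do not say whether replicate numbers pair the libraries, and the main tests took the libraries as unpaired. The fits were tested on simulated data: of 100 genes changed 1.5-fold, 62 were recovered for cadmium at 6 weeks (18080 genes), 28 at 18 weeks (20911 genes) and 69 in culture (16743 genes). Another 100 genes were changed 2-fold. Unchanged genes made up 5 of 139, 3 of 96 and 14 of 170 calls in the same order. The changed genes were random and counts were drawn independently. Deviations that genes share within a library, as in acinar share, were thus absent, and recovery in the real libraries was not measured.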

Additional observations from a re-analysis of the deposited data

Results flagged for a closer look

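Of 186 sets of values (31 genes in 6 groups), 12 held a library far from the others of its group, and chance flags about 1 in 20 such sets. At 6 weeks these were Herpud1 at 306.1 CPM in cadmium 1, Derl1 at 150.5 and Xbp1 at 336.7 in cadmium 2, and Edem2 at 130.5, the low value, in vehicle 1. At 18 weeks they were Herpud1 at 397.7 in vehicle 5, Creld2 at 101 in vehicle 6, Sec61b at 213.3 in vehicle 1, Os9 at 326.2 in cadmium 4 and Dnajb11 at 156.5 in cadmium 5. In culture vehicle 3 was high for Calr (872.3), Uggt1 (407.8) and Pdia6 (461.8). The cadmium effect differed between 18 and 6 weeks for Sec24a, by -0.5298 on the log2 scale, and for Uggt2, by -0.3882, in the edgeR test of the difference.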

How the results depend on the processing

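The cadmium comparisons called 0 members at 6 weeks and in culture under every alternative run. At 18 weeks DESeq2 called 2 members (Sec24a, Uggt2) and the fit of all 6 groups 4 (these, Ern1 and Sel1l). The estimate of Sel1l at 18 weeks reversed to -0.35 with the acinar share as a covariate, and the cause was not tested. For the cadmium effect at 18 minus 6 weeks, leaving out vehicle 4, vehicle 5, cadmium 4 and cadmium 5 of 18 weeks, chosen after seeing the data, gave 6 members in place of 2. For culture minus 18 weeks, DESeq2, the fit without the 3 libraries of lowest total count and that without the same 4 libraries each gave 2 in place of 0.

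Leaving out 1 library at a time gave 0 to 2 members for cadmium at 18 weeks (2 without cadmium 5), 0 to 3 for 18 minus 6 weeks and 0 to 2 for culture minus 18 weeks (2 without cadmium 5, and 1, Uggt2, without vehicle 4 or cadmium 2 of 18 weeks). Over all genes the same fits called 0 to 318, 0 to 1694 and 0 to 358. For cadmium at 18 weeks they called 0 genes without vehicle 1, 3, 4, 5 or 6 or cadmium 3, 2 without cadmium 4, 135 without vehicle 2, 195 without cadmium 1, 196 without cadmium 2 and 318 without cadmium 5. For 18 minus 6 weeks the 8 fits that called no member called 0 to 18 genes, and that without cadmium 5 of 18 weeks, with 3 members, called 1694. For members it gave 21 to 22 for vehicle at 18 against 6 weeks, 21 to 23 for culture against 6 weeks and 26 to 27 for culture against 18 weeks. Over all genes, cadmium at 18 weeks called 75, against 751 by DESeq2, 140 without a filter, 2496 with all 6 groups, 1 with the replicate block and 0 when the acinar share was a covariate, when acinar and Reg genes were left out, or without the 3 libraries of lowest total count. Cadmium in culture called 1 gene, 7 without a filter and 223 with the replicate block. The difference of 18 and 6 weeks called 382 genes, 1369 by DESeq2, 192 without a filter, 713 with the replicate block, and 2546 and 2551 in the fits without the 3 and the 4 libraries. That of culture and 18 weeks called 4, 164 by DESeq2, 1 with the block, and 1057 and 1162 in those same fits.

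With the replicate block the member counts were 0, 0 and 0 for cadmium, 21, 22 and 27 for the vehicle contrasts and 2, 0 and 0 for the differences of cadmium effects. Same-numbered vehicle and cadmium libraries correlated from -0.016 to 0.113 at 6 weeks, -0.113 to 0.259 at 18 weeks and 0.015 to 0.137 in culture, where 3 of 5 correlated best with their own number.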
